A study of Mus musculus with 15 samples.

Results

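The 10 genes described here encode early lineage and pluripotency factors, and their mRNA was measured in 2-cell mouse embryos: Pou5f1, Sox2, Nanog, Klf4, Klf5, Klf17, Zfp42, Sall4, Tead4 and Yap1. They were picked by gene name, and each name matched 1 row, so that 10 of the 53023 genes of the expression table were taken. Of these, 9 reached the mean of 1 FPKM (fragments scaled to gene length and to the total of the library) that was required for testing, and Nanog did not. Embryos were of the ICR strain, were made by in vitro fertilization and were taken 32 hours after insemination, and each library held the polyadenylated RNA of 5 pooled whole embryos. Injected embryos had received mRNA at 2 hours for actin with an HA tag and a nuclear localization signal, either wild type (actinWT-HA-NLS) or the mutant R62D (actinR62D-HA-NLS), the mutant being used to disrupt filamentous actin in the nucleus. Controls were not injected.

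The 6 libraries analysed form 3 pairs, for which the sample titles and the injected-mRNA annotation contradict each other. Pair A (libraries A1 and A2) is titled Wt and annotated Non-injected. Pair B (B1 and B2) is titled R62D and annotated actinWT-HA-NLS. Pair C (C1 and C2) is titled Non-injected control and annotated actinR62D-HA-NLS. Every comparison is therefore named by pair, and neither reading was chosen from the values. The labels do not tell whether the pools of a pair had separate parents or dates. The p-values measure pool-to-pool spread, which may be technical. In pools of whole embryos, fewer cells that express a gene and less RNA per cell cannot be told apart.

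Pou5f1 (Oct4) and Sox2 are transcription factors that bind DNA together and, with Nanog, form the core of the network that keeps embryonic cells pluripotent. Klf4 and Klf5 are zinc finger factors that work beside this core, Klf17 is a relative expressed in the earliest embryo, Zfp42 (Rex1) is a zinc finger protein related to Yy1 and a marker of naive pluripotent cells, and Sall4 is a zinc finger protein needed for the inner cell mass. Yap1 is the transcriptional coactivator held in check by the Hippo kinases, and Tead4 is the DNA-binding partner through which it switches on trophectoderm genes in outer cells of the morula. In mouse, the 2-cell stage is when the embryo's own genome is activated on a large scale and maternal mRNA is lost.

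The promoters shown are those of Klf17, the most abundant of these genes, and of Zfp42. Zfp42 had the smallest unadjusted p-values of these genes against pair A, but it was singled out because earlier results of these data had named it. Each sequence is the 250 bases before the RefSeq start (GRCm38.p6, the assembly of mm10), written 5′ to 3′ on the gene's minus strand, at chr4:117765667-117765916 for Klf17 and chr8:43307010-43307259 for Zfp42. Capitals mark exact matches, on either strand, to any of 8 motifs searched.
Klf17: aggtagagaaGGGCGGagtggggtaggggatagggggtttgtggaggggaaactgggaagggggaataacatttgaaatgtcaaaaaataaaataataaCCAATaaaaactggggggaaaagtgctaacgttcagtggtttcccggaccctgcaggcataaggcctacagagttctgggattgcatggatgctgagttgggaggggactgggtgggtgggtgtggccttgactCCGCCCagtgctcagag
Zfp42: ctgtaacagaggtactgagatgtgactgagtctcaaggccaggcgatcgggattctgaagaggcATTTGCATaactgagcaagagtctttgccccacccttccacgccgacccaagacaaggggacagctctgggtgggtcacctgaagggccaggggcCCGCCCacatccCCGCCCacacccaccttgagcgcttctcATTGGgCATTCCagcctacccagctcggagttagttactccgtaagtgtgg
The Klf17 window held the CCAAT box (CCAAT) at -151 to -147 and the GC box (GGGCGG) at -240 to -235 and, on the other strand, at -17 to -12. The Zfp42 window held, all on the other strand, the POU octamer (ATGCAAAT) at -186 to -179, GC boxes at -91 to -86 and -79 to -74, a CCAAT box at -51 to -47 and a TEAD element (GGAATG) at -45 to -40. No 2 matches overlapped in these windows. Of 32851 mouse promoter windows of the same length, 33.8% held CCAAT, 32.7% GGGCGG, 1.60% the octamer and 12.6% GGAATG. The other motifs had no match in these 2 windows: the TATA box core (TATAAA), held by 12.4% of all windows, the extended site of the nuclear receptors Nr5a2 and Esrrb (AAGGTCA), held by 4.08%, the homeodomain core of Otx and Obox factors (GGATTA), held by 6.25%, and the Yy1 core (GCCAT), held by 32.9%. RefSeq entries matched 7 of the 10 genes, with 9 windows (Pou5f1 and Nanog have 2 each). None of the 9 windows held the TATA box core or this extended site. A match is a run of letters only, and no binding was measured. Klf17 and Zfp42 had fewer CpG than Yap1, Klf4 and Sox2: 4 CpG in Klf17 (observed over expected 0.301) and 9 in Zfp42 (0.423), against 44 in Yap1 (1.25), 32 in Klf4 (0.941) and 27 in Sox2 (0.833). The Nanog windows also held few CpG, 3 and 2 (0.182 and 0.104). So did those of Pou5f1, with 8 and 6 (0.334 and 0.467). The median over all windows was 0.374.

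Assigned reads, recovered from the FPKM values, ranged from 907210 to 1555431 per library, so 1 read in a gene of 2 kb was worth 0.321 to 0.551 FPKM. Libraries A2 and C2 stood apart from the other 4 on principal component 1 (28.7% of the variance, scores 49.3 and 49.7 against -32.7 to -11.1) and also had the lowest numbers of genes reaching 1 FPKM (12485 and 12279, the others 13239 to 13845). The markers of the labelled stage were present: all 12 of the 2-cell-stage genes matched, Zscan4d and Zfp352 among them, averaged at least 1 FPKM, and their summed level was 1290 to 1859 FPKM in A, 2604 to 3247 in B and 1572 to 2044 in C. Markers of the morula and blastocyst summed to 11.1 to 11.7 FPKM in A, 8.05 to 15.6 in B and 6.94 to 8.81 in C. Of these 8 genes, Cdx2 and Sox17 were listed at 0 in all 6 libraries, and Fgf4, Gata4 and Krt18 averaged 4.73, 2.78 and 1.72 FPKM. Cumulus and granulosa cell markers summed to 4.68 to 5.44 FPKM in A, 8.18 to 11.1 in B and 4.63 to 10.2 in C. Of these 12 genes, Amhr2 and Tnfaip6 were the highest, at means of 5.40 and 1.35 FPKM, and 5 (Ptx3, Foxl2, Fshr, Inha and Inhba) were at 0 throughout. Blood cell markers summed to 14.2 to 81.6 FPKM in A, 40.4 to 76.9 in B and 9.11 to 30.3 in C. Nearly all of this came from the globin genes Hba-a1 and Hba-a2, at means of 22.4 and 19.5 FPKM, while Hbb-bs and Hbb-bt were at 0 throughout. Sperm markers summed to 32.3 to 53.2 FPKM over all libraries, most of it from Ldhc at a mean of 36.0 FPKM, with 3 of 9 (Prm1, Tnp2 and Odf1) at 0 throughout. Fibroblast markers summed to at most 2.15 FPKM with 3 of 6 (Col1a2, Col3a1 and Dcn) at 0 throughout.

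Levels per gene length spanned from Klf17, at 32.4 ± 14.9 FPKM, to Nanog, at 0.217 ± 0.446 FPKM (SD over 6 libraries). Between them, mean levels were 15.4 for Zfp42, 8.12 for Klf4, 6.84 for Yap1, 4.73 for Sall4, 4.22 for Tead4, 3.97 for Klf5, 1.48 for Sox2 and 1.03 FPKM for Pou5f1. Klf17 ranked 2269 and Zfp42 3768 among the 13443 genes tested, while Pou5f1 ranked 13298. Ranges of neighbours in this order overlapped for every step except that from Klf5 (lowest library 3.18 FPKM) to Sox2 (highest library 2.85 FPKM). Klf17 nevertheless lay above Zfp42 in 6 of 6 libraries, and Klf4 above Yap1 in 6 of 6. The core factors Pou5f1, Sox2 and Nanog thus formed the lowest rung, below the Klf genes, Zfp42, Sall4 and the Hippo effectors in mean level.

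**Figure D1:**
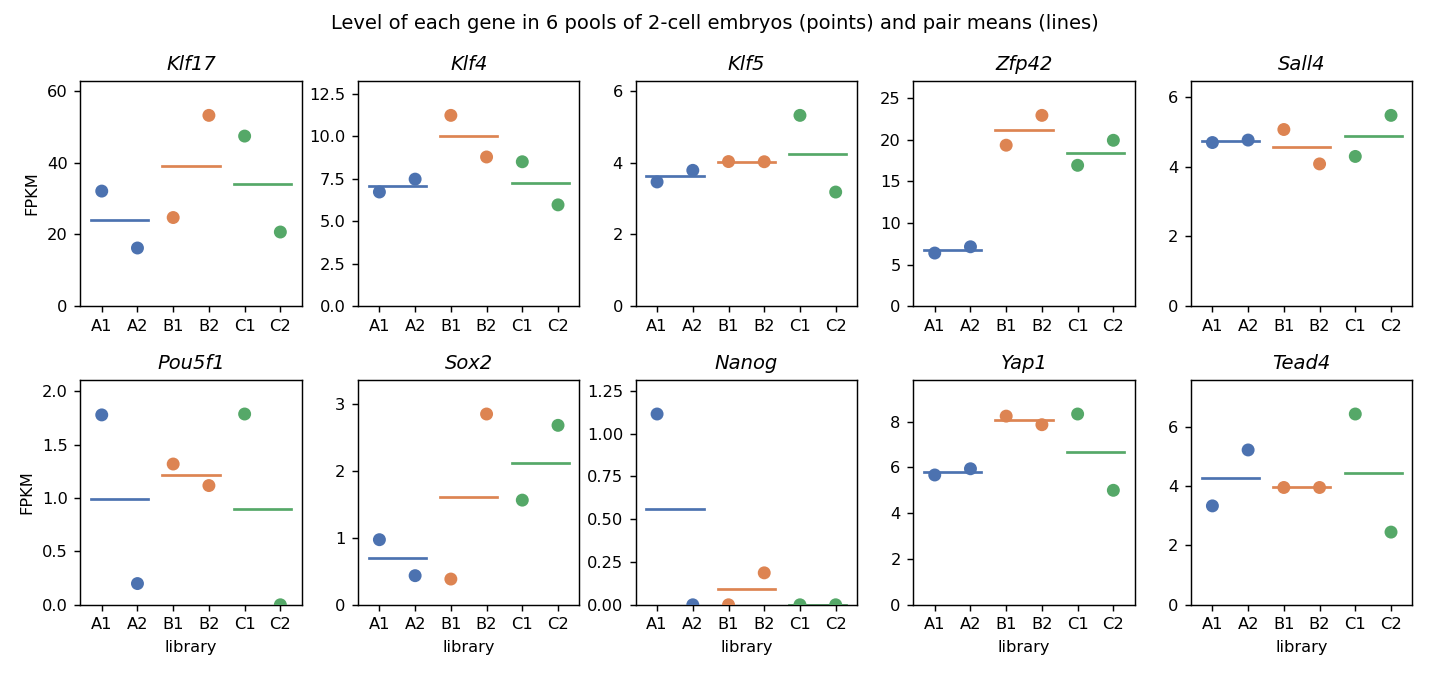
FPKM (y axis, each starting at 0 with its own scale) of the 10 genes in libraries A1 to C2 (x axis); points are single pools and lines the mean of each pair. Zfp42 was at 6.38 and 7.13 FPKM in pair A and between 16.9 and 22.9 FPKM in the other 4 libraries, while Klf17 varied as much within pairs as between them.

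Zfp42 (ENSMUSG00000051176.6, chromosome 8, 43295063 to 43306980, minus strand, mm10, 1881 bases of exon) had the smallest unadjusted p-values of the 9 genes tested in both comparisons with pair A. Its level was 6.38 FPKM in A1 and 7.13 in A2, against 19.3 in B1, 22.9 in B2, 16.9 in C1 and 19.9 in C2. Both A libraries were low, all 4 others were high, and B and C overlapped. The values rested on 12 and 15 reads in A, 46 and 51.5 in B, and 49.5 and 34 in C. The 95% counting intervals (Poisson) of the A libraries ended at 11.1 and 11.8 FPKM, and the lowest of the other 4 began at 12.5 FPKM. These intervals cover counting error only: they leave out the spread between pools, and reads that are PCR copies of 1 molecule are not independent.

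As pair means, Zfp42 was at 6.76 ± 0.53 FPKM in A, 21.1 ± 2.53 in B and 18.4 ± 2.13 in C (SD, n = 2). The ratio of means was 3.13 for B to A and 2.73 for C to A, the latter below the 3.01 of Sox2, which rests on far fewer reads. The fitted log2 fold change was 1.51 ± 0.32 (SE) in B against A, with an unadjusted p of 0.00194, and 1.32 ± 0.32 in C against A, with an unadjusted p of 0.00402. Neither passed over the 13443 genes (limma, adjusted p = 0.704 and 1), where the gene ranked 37 and 43 by p. C against B gave -0.19 ± 0.32, with a 95% interval of -0.94 to 0.56 and an adjusted p of 1. Both A libraries lay below every B and C library, so leaving out a single library could change the size but not the direction against A. The fold change of B against A was 1.58 without A2, and that of C against A was 1.39 without A2 and 1.21 without C2. The low pair is the one titled Wt and annotated Non-injected. Its summed 2-cell-stage markers given above were also below those of B and overlapped those of C, as was the case for the cumulus markers. The mitochondrial share of reads was 10.6% and 13.1% in A, above 8.24% and 10.2% in B, and overlapped 7.23% and 10.9% in C. The part of any of these in the Zfp42 difference was not tested.

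**Figure D2:**
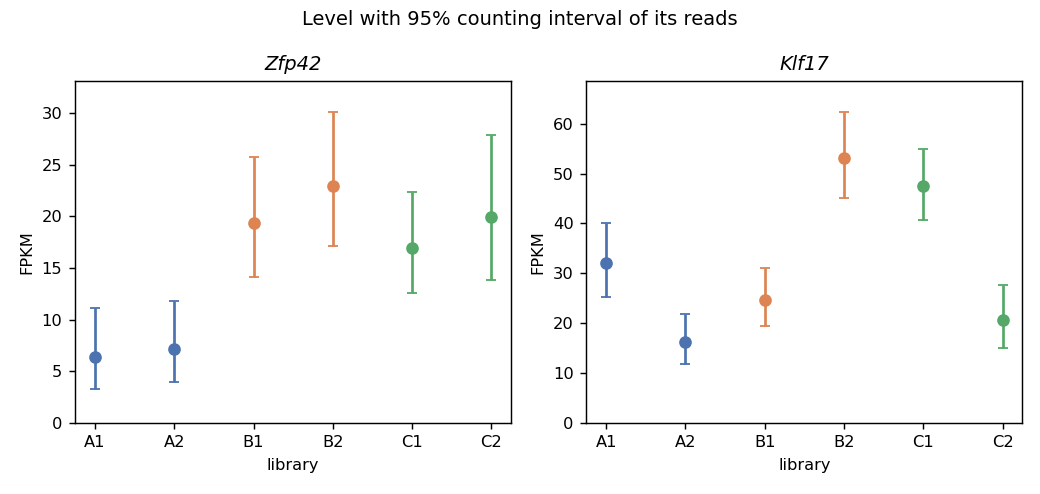
FPKM (y axis, from 0) of Zfp42 and Klf17 in each library (x axis); bars are 95% Poisson intervals of the recovered reads, and colours mark the pairs. Intervals of the A libraries lay below all others for Zfp42, whereas for Klf17 the intervals of the 2 libraries of each pair did not overlap.

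The relatives of Zfp42 were ordered otherwise. Yy1, a zinc finger factor found in most cells, measured 23.6 and 24.9 FPKM in A, 27.1 and 22.8 in B, and 14.0 and 27.4 in C. Its retrogene relative Yy2 measured 50.9 and 49.6 FPKM in A, 68.3 and 142.6 in B, and 63.8 and 42.3 in C. Yy2 was thus highest in B2, and its A libraries lay below B but within the range of C. Its log2 fold change was 0.96 ± 0.41 (SE) in B against A and 0.05 ± 0.41 in C against A. Of the 3 genes of this list 0 passed over all genes (limma). In each of these comparisons 1, Zfp42, was below 0.05 unadjusted, beside 4.57% of all genes in B against A and 3.01% in C against A. The nearest tested gene on the chromosome, Triml2, lies 101.2 kb away and measured 5.41 and 3.88 FPKM in A, 5.14 and 7.93 in B, and 8.18 and 5.07 in C, so its pairs overlapped.

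Klf17 (ENSMUSG00000048626.5, chromosome 4, 117757836 to 117765648, minus strand) was the most abundant of the 10 genes. It measured 32.1 and 16.2 FPKM in A, 24.7 and 53.2 in B, and 47.4 and 20.7 in C. All 3 pairs overlapped, and the lowest libraries were A2 and C2, which also had the fewest genes detected; the part of this in the Klf17 level was not tested. The values rested on 43.5 to 177 reads, and in each pair the 95% Poisson intervals of the 2 libraries, which treat reads as independent, were apart (A2 up to 21.8 and A1 from 25.3, B1 up to 31.0 and B2 from 45.1, C2 up to 27.7 and C1 from 40.7 FPKM). The mean of pair A was 24.1 ± 11.2 FPKM, that of B 38.9 ± 20.1 and that of C 34.0 ± 18.9 (SD, n = 2). Log2 fold changes were 0.65 ± 0.56 (SE) in B against A, 0.44 ± 0.56 in C against A and -0.20 ± 0.56 in C against B, and none passed (limma, adjusted p = 0.991, 1 and 1). Leaving out 1 library moved B against A to between 0.11 (without B2) and 1.183 (without B1), with 0.17 without A2. Without A2 or C1, C against A turned to -0.03 or -0.14, and without B2 or C2, C against B turned to 0.33 or 0.38.

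Klf4 (ENSMUSG00000003032.8, chromosome 4, 55527143 to 55532466, minus strand) measured 6.72 and 7.48 FPKM in A, 11.2 and 8.79 in B, and 8.50 and 5.97 in C. Both B libraries lay above the 4 others, the gap between B2 and C1 being small. The values rested on 16.5 to 43.3 reads, and the 95% interval of each comparison spanned 0. Log2 fold changes were 0.44 ± 0.36 (SE) in B against A, 0.01 ± 0.36 in C against A and -0.43 ± 0.36 in C against B (limma, adjusted p = 0.991, 1 and 1). That interval was -0.83 to 0.85 in C against A, the pair of groups with the closest means.

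Klf5 (ENSMUSG00000005148.8, chromosome 14, 99298691 to 99315036, plus strand) had the second lowest coefficient of variation, 18.7% over the 6 libraries, at 3.46 and 3.78 FPKM in A, 4.03 and 4.02 in B, and 5.32 and 3.18 in C. C1 and C2 were its highest and lowest libraries and enclosed the others, although A lay just below B. Its log2 fold changes were 0.12, 0.15 and 0.03 in B against A, C against A and C against B, each ± 0.40 (SE), and none passed (limma, adjusted p = 0.9987, 1 and 1).

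In the wider Klf family, 10 of 17 genes were tested and 3 (Klf12, Klf14 and Klf15) were listed at 0 in all libraries. After Klf17, the highest means were 8.33 FPKM for Klf9, 8.12 for Klf4 and 7.54 for Klf11. None of the 10 passed in any comparison, adjusted or unadjusted (limma). Over all genes 4.57% were below an unadjusted p of 0.05 in B against A, 3.01% in C against A and 3.85% in C against B. A count of 0 in 10 genes is thus near the background. In B against A 8 of 10 coefficients were above 0, with a median log2 fold change of 0.41 beside 0.07 over all genes tested, and in C against A 9 of 10, with a median of 0.25 beside 0.06. In C against B 5 of 10 were above 0, with a median of -0.09 beside 0 over all genes. Klf9, a glucocorticoid-responsive member, was 1 of the 2 below 0 in B against A, at -0.80 ± 0.49 (SE). It measured 6.44 and 12.3 FPKM in A, 3.39 and 6.41 in B, and 14.0 and 7.43 in C. Both B libraries lay below both A libraries, though B2 was barely below A1, and 12.8% of all genes had this order.

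The core factor Pou5f1 (ENSMUSG00000024406.16, chromosome 17, 35506018 to 35510772, plus strand) was barely detected. It measured 1.78 and 0.199 FPKM in A, 1.32 and 1.12 in B, and 1.79 and 0 in C. Its 2 lowest values fell in A2 and C2, the libraries that stood apart, and the pairs overlapped. The values rested on 0 to 6.25 reads. For the count of 0 in C2, the floor of 3 reads was 1.47 FPKM, and the 95% Poisson interval ended at 1.81 FPKM. An antisense gene, Gm19553, shares exon bases with Pou5f1, and since the handling of strand is not given, their reads cannot be told apart. Log2 fold changes were 0.28 in B against A, -0.13 in C against A and -0.41 in C against B, each ± 0.71 (SE), and none passed, with a 95% interval of -1.39 to 1.95 in B against A (limma, adjusted p = 0.996, 1 and 1).

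Sox2 (ENSMUSG00000074637.7, chromosome 3, 34650405 to 34652461, plus strand), a gene of 1 exon, measured 0.972 and 0.435 FPKM in A, 0.384 and 2.85 in B, and 1.56 and 2.68 in C. Both C libraries lay above both A libraries, while B1 and B2 were the lowest and highest of all. These values came from 1 to 7 reads per library, with A1, A2 and B1 under the floor of 3 reads. The log2 fold change of C against A was 0.87 ± 0.63 (SE), with a 95% interval of -0.62 to 2.35 (limma, adjusted p = 1). B against A and C against B gave 0.46 and 0.41 ± 0.63 (adjusted p = 0.991 and 1). Of its relatives, Sox15, a Sox factor of early embryonic cells, was far higher at a mean of 29.8 FPKM, with 22.1 and 21.3 FPKM in A, 28.9 and 54.9 in B, and 34.7 and 16.6 in C. Sox3 and Sox14 were listed at 0 in all libraries.

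Nanog (ENSMUSG00000012396.12, chromosome 6, 122707489 to 122714633, plus strand) was listed at 0 in A2, B1, C1 and C2, at 1.11 FPKM in A1 and at 0.187 FPKM in B2. The positive values rested on 2.5 and 0.5 reads, below the floor of 3 reads, which corresponds to 0.860 FPKM in C1, the library with most reads, and to 1.47 FPKM in C2, that with fewest. No comparison of Nanog between pairs was made.

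Sall4 (ENSMUSG00000027547.17, chromosome 2, 168748332 to 168767943, minus strand) varied least, with a coefficient of variation of 10.7% over the 6 libraries. It measured 4.70 and 4.77 FPKM in A, 5.07 and 4.08 in B, and 4.30 and 5.48 in C. The A libraries lay inside the ranges of both other pairs. Its log2 fold changes were -0.05 in B against A, 0.03 in C against A and 0.08 in C against B, each ± 0.37 (SE), and their 95% intervals reached from -0.90 to 0.93 (limma, adjusted p = 1 in all 3). The other family members, Sall1, Sall2 and Sall3, did not reach a mean of 1 FPKM. The gene Gm14261 on the opposite strand shares exon bases with Sall4.

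The Hippo effector Yap1 (ENSMUSG00000053110.13, chromosome 9, 7931999 to 8004596, minus strand) measured 5.67 and 5.94 FPKM in A, 8.24 and 7.87 in B, and 8.33 and 5.00 in C. Both B libraries lay above both A libraries, and C spanned the whole range. It had 42 to 120 reads per library. The log2 fold change of B against A was 0.41 ± 0.37 (SE), that of C against A 0.14 ± 0.37 and that of C against B -0.27 ± 0.37 (limma, adjusted p = 0.991, 1 and 1). Gm20416, on the other strand, shares exon bases with Yap1.

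Its partner Tead4 (ENSMUSG00000030353.15, chromosome 6, 128224288 to 128300823, minus strand) measured 3.33 and 5.22 FPKM in A, 3.96 and 3.96 in B, and 6.43 and 2.45 in C. C1 and C2 were again the extremes, and all pairs overlapped. On 8 to 36 reads, log2 fold changes were -0.07, -0.04 and 0.03 in B against A, C against A and C against B, each ± 0.48 (SE) (limma, adjusted p = 1 in all 3). Tead1, Tead2 and Tead3 did not reach a mean of 1 FPKM, so Tead4 was the 1 family member tested.

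Of 26 Hippo pathway genes 11 were tested, and 0 passed in any comparison, adjusted or at an unadjusted p of 0.05 (limma). This is near the background, as 4.57% of all genes were below that p in B against A, 3.01% in C against A and 3.85% in C against B. The most abundant were Taok1, a kinase upstream of the pathway, at a mean of 26.0 FPKM, Mob1a, the adaptor of the Lats kinases, at 15.9, Wwc2 at 14.96, and Wwtr1 (Taz), the paralogue of Yap1, at 7.91. Wwtr1 measured 8.997 and 9.73 FPKM in A, 4.80 and 8.23 in B, and 9.01 and 6.69 in C, so that, unlike Yap1, its B libraries lay below A. Its log2 fold change of B against A was -0.50 ± 0.39 (SE). The median of the list was 0.13 in B against A, 0.14 in C against A and 0.18 in C against B, beside 0.07, 0.06 and 0 over all genes tested. Among the targets of Yap and Tead, Myc at 2.35 and Gata3 at 1.16 FPKM were tested, with none called, and Ankrd1, Amotl2 and Cdx2 were listed at 0 in every library. Myc measured 3.68 and 3.29 FPKM in A, 1.16 and 1.54 in B, and 2.37 and 2.03 in C, the B libraries lying below the others, with a log2 fold change of -0.93 ± 0.42 (SE) in B against A (limma, adjusted p = 0.991).

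**Figure D3:**
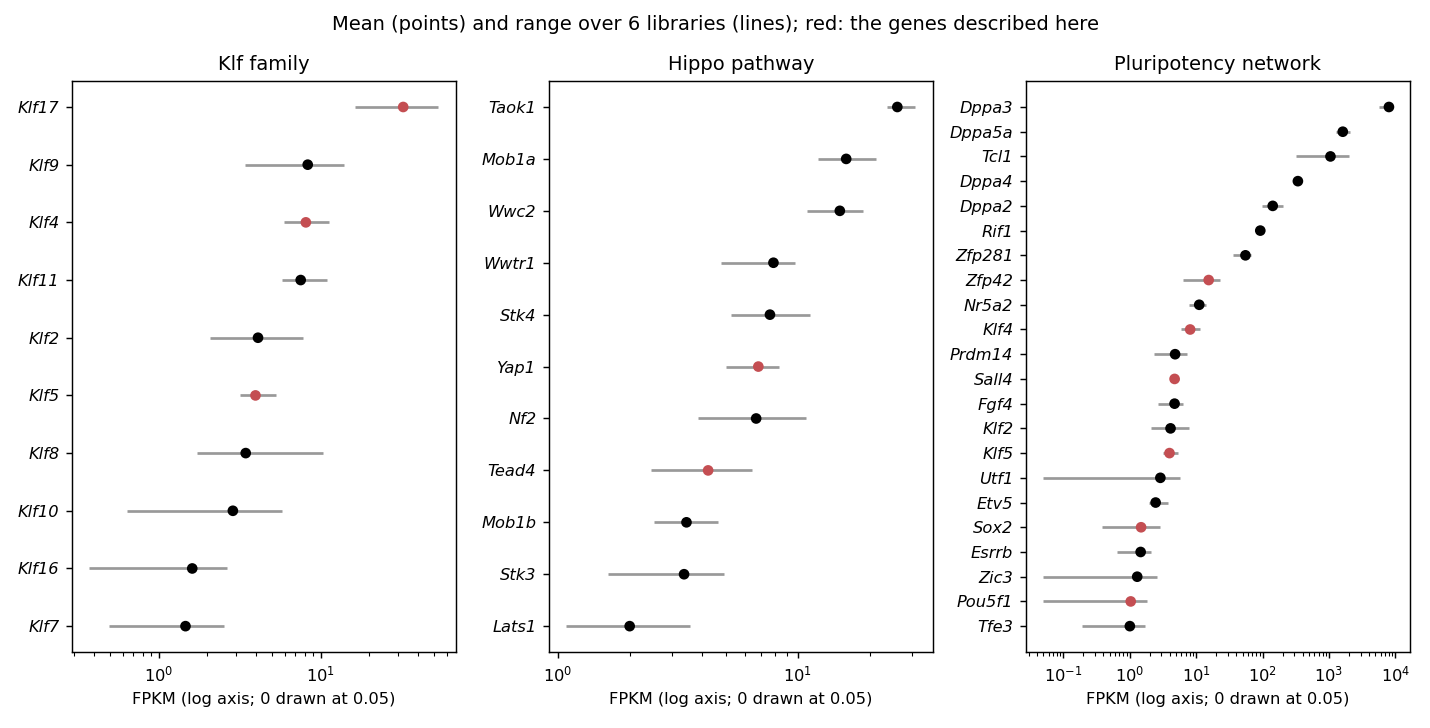
Mean FPKM (points, log axis) and the range over 6 libraries (lines) of the tested genes of the Klf family, the Hippo pathway and the pluripotency network, with the genes described here in red. Klf17 led its family at 32.4 FPKM, Yap1 was the median gene of the 11 tested in the pathway at 6.84 FPKM with Tead4 next but one below it at 4.22 FPKM, and Pou5f1 lay near the bottom of the network at 1.03 FPKM.

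Within a list of 32 pluripotency genes, of which 22 were tested, the Dppa genes and Tcl1 dominated. Dppa3 (Stella), a maternal protein that protects the maternal genome of the zygote from demethylation, averaged 8004 FPKM, Dppa5a 1615, Tcl1, a coactivator of the kinase Akt, 1053, and Dppa4 340.3 FPKM. Tcl1 was the most uneven of these 4, at 1988 and 320.0 FPKM in A, 705.3 and 449.2 in B, and 2009 and 848.3 in C. Zfp42 was the 1 gene of the 22 below an unadjusted p of 0.05 in B against A, where 4.57% of all genes were, and in C against A, where 3.01% were, so the count is about that of the background. In C against B, where 3.85% of all genes were, 0 were below it, and 0 passed over all genes (limma). The medians were 0.02 in B against A, 0.03 in C against A and 0.02 in C against B, beside 0.07, 0.06 and 0 over all genes.

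Regulators of the later lineages were mostly at low levels or undetected. Of 13 trophectoderm genes 5 were tested, with Id2 at a mean of 15.9 FPKM, Tfap2c at 9.64, Dab2 at 1.82 and Krt18 at 1.72, and Cdx2, Elf5 and Hand1 were listed at 0 throughout. Tfap2c, a factor active from the oocyte onward, measured 9.92 and 11.5 FPKM in A, 10.2 and 8.87 in B, and 7.43 and 9.89 in C. The median log2 fold change of the 5 was 0.55 in B against A, 0.55 in C against A and -0.14 in C against B, beside 0.07, 0.06 and 0 over all genes. Against A, 4 of 5 coefficients were above 0 in each comparison, but Dab2 and Gata3 were listed at 0 in A2 and Krt18 in A1. Of 10 primitive endoderm genes, Gata4 at 2.78 FPKM and Dab2 were tested, with medians of 0.15, 0.09 and -0.06 in the same order. Sox7, Sox17, Hnf4a and Foxa2 were listed at 0. None of the genes tested here passed in any comparison, adjusted or at an unadjusted p of 0.05 (limma). With so few genes this is near the background of 4.57% of all genes in B against A, 3.01% in C against A and 3.85% in C against B.

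Across the 10 genes, B against A was the comparison in which most differed in order. The 2 B libraries lay above the 2 A libraries for 4 of 9 genes tested (Zfp42, Klf4, Klf5 and Yap1) and below for 0, where 31.7% of all genes had pairs that did not overlap, 18.8% with B higher and 12.8% with B lower. Klf5 did not keep this order under median scaling (log2 level 2.40 in A2 against 2.29 and 2.28 in B) or quantile normalization (2.41 against 2.30 and 2.29). Of 9 coefficients 7 were above 0 in B against A, the same number in C against A, and 4 in C against B. The share of all genes with a coefficient above 0 was not counted. The median log2 fold change of B against A was 0.41 beside 0.07 over all genes. In C against A, 2 of 9 genes (Zfp42 and Sox2) had C above A and 0 below, beside 26.9% of all genes in either direction (16.5% higher and 10.4% lower), and the median was 0.14 beside 0.06. For Sox2 this order rested on 2 and 1 reads in A, under the floor of 3 reads, and 5 in each C library. In C against B, 1 of 9 (Klf4) had C below B and 0 above, beside 30.2% in either direction (15.5% higher and 14.8% lower); the C libraries of Yap1 also lay below B under median scaling (log2 level 3.09 in C1 against 3.10 in B2) and quantile normalization (3.09 against 3.12). In the unscaled fit the median was -0.19 beside 0. With 2 libraries a pair an exact permutation test of 1 gene cannot go below p = 0.333 (two-sided), so none was used.

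**Figure D4:**
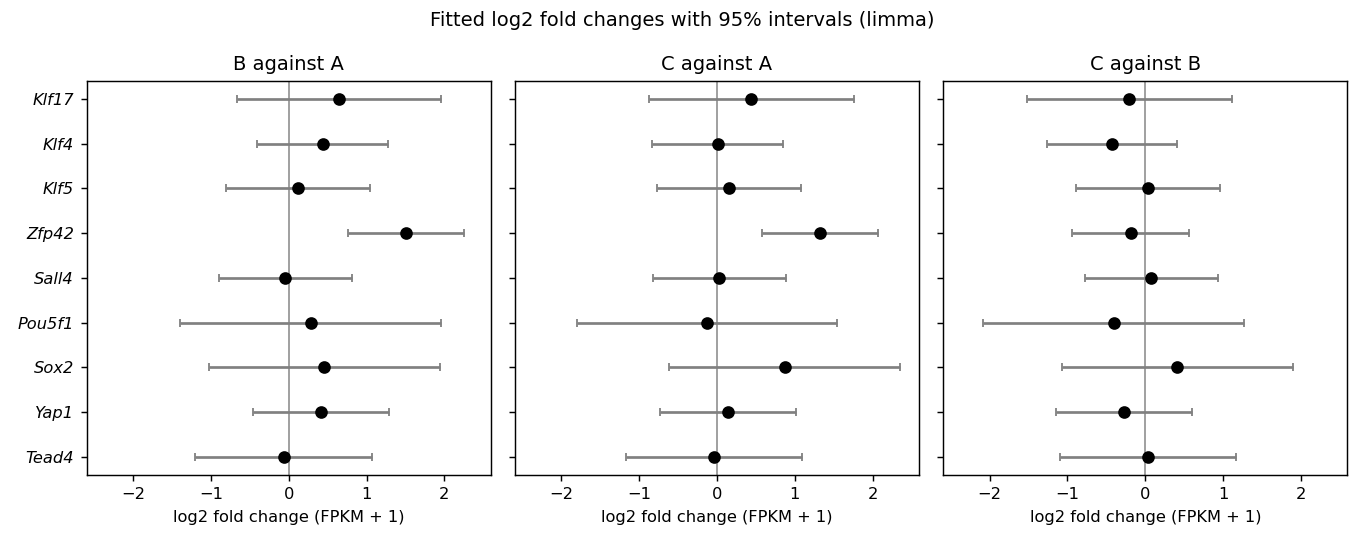
Fitted log2 fold change on the log2(FPKM + 1) scale (x axis) of the 9 genes tested (y axis) in the 3 comparisons; points are limma coefficients and bars 95% intervals. The intervals of Zfp42, 0.76 to 2.26 in B against A and 0.57 to 2.07 in C against A, lay above 0 before adjustment over genes, and all others crossed 0.

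By the test, 0 of 9 genes passed in each comparison (limma, smallest adjusted p = 0.704, 1 and 1 for B against A, C against A and C against B), and limma-voom on recovered reads also called 0. The share of all genes called was 0% in each of the 3 comparisons. At an unadjusted p of 0.05, 1 of 9 genes (Zfp42) was below in B against A, where 4.57% of all genes were (2.77% higher and 1.79% lower). It was also the 1 of 9 in C against A, beside 3.01% of all genes (1.67% higher and 1.34% lower), and 0 of 9 were below in C against B, beside 3.85% (1.64% higher and 2.22% lower). In B against A these were 373 higher and 241 lower genes, or 309 and 311 after median scaling and 315 and 321 after quantile normalization. Comparisons that share a pair share its libraries, so the B and C differences from A for Zfp42 are not independent of each other.

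The genes whose levels over the 6 libraries were most like that of Zfp42, among 7085 others with a mean of at least 5 FPKM, were Bcl2l14, a relative of the apoptosis regulator Bcl2 (Pearson r = 0.986 across the 6 libraries), Taf11, a subunit of the general transcription factor TFIID (0.980), and Sqle, squalene epoxidase of sterol synthesis (0.970). Only 10 genes, 0.141%, had an r above 0.95. Bcl2l14 measured 6.11 and 7.32 FPKM in A, 11.01 and 12.3 in B, and 11.2 and 11.4 in C, and Taf11 19.6 and 20.3, 33.8 and 36.9, and 32.6 and 30.3 FPKM in the same order. Both had the A libraries below the 4 others. For Klf17 the most alike were Slc25a5, the mitochondrial ADP/ATP carrier (0.988), Gm21984 (0.981) and Gm13675 (0.980). For Klf4 they were Mageb16-ps2 (0.989), Bcas3 (0.985) and Mageb16 (0.978), the first being annotated as a pseudogene, so that reads of Mageb16 and Mageb16-ps2 may be shared. These correlations rest on 6 shared libraries and were picked as the highest of 7085, so they are descriptions only.

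Among the 9 tested genes themselves, the closest pairs over the 6 libraries were Yap1 with Klf4 (r = 0.90), Tead4 with Klf5 (0.88) and Yap1 with Klf5 (0.83). Sall4 ran against Klf17 (-0.81). For Zfp42, r lay between -0.13 (Tead4) and 0.57 (Sox2), and for Sox2 and Sall4 it was also at most 0.57 and -0.05. All these values share the same 6 libraries and their depth, and the genes of the first 3 pairs (Yap1, Klf4, Tead4 and Klf5) each had their lowest FPKM in C2, the library with fewest reads. After median scaling or quantile normalization the lowest library was A1 for Klf4, Klf5 and Yap1 and was still C2 for Tead4.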

How the data were processed

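The authors deposited FPKM values of 53023 genes with gene lengths and positions. Per the submitters' processing notes the build was mm10 and the programs were Trimmomatic, Trim Galore, cutadapt, STAR and featureCounts. Strand use is not given in the sources used here. Spike-in RNA had been added per the labels' protocols, and 0 rows of the table name it. The other 9 libraries of the series were not analysed here. FPKM times length gave reads up to 1 factor per library, taken from the most frequent value above 0. All values were then multiples of 0.01 read (tolerance 0.0002 read), and 55.58% to 57.88% of those above 0 were whole (tolerance 0.001 read), so some reads had been counted as fractions.

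Genes averaging 1 FPKM or more (13443) were compared on the log2(FPKM + 1) scale, which understates changes of low genes. All 6 libraries entered 1 limma fit (3.58.1, R 4.3.3, variance trend) with a mean for each pair, two-sided, adjusted by Benjamini-Hochberg over all genes, at a threshold of 0.05. The fit was also run on simulated reads in which any change was set in B against A and was larger than that of Zfp42. Changes were set only in genes with more reads than Pou5f1, Sox2 or Tead4. That run therefore cannot speak for smaller changes or for these genes. Read counts gave 95% intervals, and 3 reads the floor for a count of 0. Lists were described by counts and medians. Genes named are the 10, the up to 4 most abundant tested genes of each list with any below an unadjusted p of 0.05, and the 3 most like Zfp42, Klf17 and Klf4 by Pearson r on the log2 scale. Triml2, markers and genes listed at 0 were named after their values were seen. The members and lists were chosen with earlier results of these data known. Zfp42 was singled out because those results had named it, so its p-values here are no independent support. Alternatives were other pseudocounts, filters and scalings, no trend, pairs fitted alone, a replicate block and leaving out each library, with limma-voom and protein-coding genes only added after seeing the data.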

Additional observations from a re-analysis of the deposited data

How the results depend on the processing

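In none of the settings that kept both libraries of each pair did any of the 9 genes tested pass over all genes (limma). The adjusted p of Zfp42 in these was 0.526 to 0.977 in B against A, 0.834 to 1 in C against A and 0.995 to 1 in C against B. Over all 16 settings its log2 fold change kept its direction, at 1.39 to 1.63 in B against A, 1.21 to 1.43 in C against A and -0.30 to -0.07 in C against B. Several settings could not change this coefficient, so their direction was fixed beforehand. These were the filters, no variance trend, the block, pairs fitted alone, protein-coding genes only and leaving out a library of the third pair. Against A, another pseudocount or leaving out a library of a compared pair could change the size of the coefficient but not its direction. This is because both A libraries lay below every B and C library. With a filter at a mean of 5 FPKM, Klf17, Klf4, Zfp42 and Yap1 alone remained to be tested. Over all genes the count called in C against B went from 0 to 1 with a pseudocount of 0.1. With no filter, which adds genes at or near 0, it went from 0 to 16 in C against B, 31 in C against A and 34 in B against A. With the replicate number as a block, Zfp42 had log2 fold changes of 1.51 and 1.32 against A (limma, adjusted p = 0.711 and 1). The block cannot change these fold changes, because each pair holds both replicate numbers, but only their p-values. The number of calls stayed at 0. The labels do not tell whether same-numbered libraries shared more than a number, though their columns were numbered consecutively. Their deviations correlated at 0.098 (A and B), 0.203 (A and C) and 0.0050 (B and C). Coefficients of the 8 other genes changed sign in some comparisons, among them some of over 0.4 in size (Sox2, Klf17 and Pou5f1) when 1 library was left out. In C against A, median scaling gave -0.044 for Klf4 and -0.021 for Sall4, quantile normalization -0.047 and -0.026, and limma-voom 0.028 for Tead4. Leaving out 1 library gave these ranges. In C against A they were -0.14 to 1.02 for Klf17, -0.22 to 0.23 for Klf4, -0.14 to 0.45 for Klf5, -0.87 to 0.61 for Pou5f1, -0.11 to 0.18 for Sall4, -0.59 to 0.52 for Tead4 and -0.18 to 0.46 for Yap1. In C against B they were -0.78 to 0.38 for Klf17, -0.27 to 0.33 for Klf5, -1.15 to 0.33 for Pou5f1, -0.068 to 0.22 for Sall4, -0.33 to 1.15 for Sox2, -0.52 to 0.58 for Tead4 and -0.59 to 0.044 for Yap1. In B against A they were 0.11 to 1.183 for Klf17, -0.33 to 0.89 for Pou5f1, -0.17 to 0.083 for Sall4, -0.28 to 1.19 for Sox2 and -0.33 to 0.19 for Tead4. The cause of these changes was not tested. Scaling moved the pair levels of the 9 genes by at most 0.097 on the log2 scale. Depth limits Pou5f1, Sox2 and Nanog most, at 17.5, 21 and 3 reads over all 6 libraries.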
